A study of Sus scrofa with 27 samples.

Results

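The angiopoietin, Tie and VEGF axis was followed here as a family of 10 genes in pig lungs kept alive outside the body by ex vivo lung perfusion (EVLP). The members were taken by name: the Tie ligands ANGPT1 and ANGPT2, the Tie receptors TEK and TIE1, the VEGF family ligands VEGFA and PGF, the VEGF receptors FLT1, KDR and FLT4, and the co-receptor NRP1. The count table holds 31908 genes, and 9 of the 10 members carry their symbol there. All 9 passed the requirement of at least 10 counts in some library, and even the lowest single value among them was 43 counts, for ANGPT2. The row of PGF has no symbol in the table and was found through its gene identifier, where it is typed as a long non-coding RNA. Its values are given beside those of the 9 members and it enters no count of members called.

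Angiopoietins and VEGFs are secreted proteins that act on receptor tyrosine kinases of the endothelium, the cell layer lining blood and lymph vessels. ANGPT1 activates TEK, also called Tie2, and keeps vessels quiet and tight, whereas ANGPT2 is stored in endothelial cells and can block TEK when vessels are activated. TIE1 is a second receptor of this kind that binds no angiopoietin strongly by itself and works in complex with TEK. VEGFA, long known as a vascular permeability factor, signals mainly through KDR (VEGF receptor 2). FLT1 (VEGF receptor 1) binds VEGFA and PGF and often acts as a trap. FLT4 (VEGF receptor 3) serves lymphatic vessels above all, and NRP1 holds VEGFA on the cell surface beside KDR. The lung makes much VEGFA, largely in its alveolar epithelium, and has one of the densest capillary beds of the body.

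The lungs came from 9 Large-White pigs in a model of donation without a beating heart, and each was perfused for 12h by the Toronto protocol after cold ischemia. In the Gold Standard (GS) group, 5 pigs, part of the Steen perfusate was replaced at regular intervals. In the Pediatric Dialysis (PD) group, 4 pigs, the circuit was instead put under continuous hemodialysis through a pediatric membrane. According to the study's methods the same PD lungs, at the middle time point alone, were also analysed in an earlier publication, which had a different GS group. Every lung, in both groups, received Steen solution with methylprednisolone (a glucocorticoid), cefuroxime and heparin, and each gave a biopsy at 0h (before perfusion), 6h and 12h, which makes 27 RNA-seq libraries. No sex or age is given for the pigs in the sources used here. An isolated lung has no blood circulation to recruit cells from, and the circuit holds a leukocyte-depletion filter.

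GS libraries held 26335584 to 67522703 counts and PD libraries 14650700 to 21820935, so that no PD library had the depth of any GS library and a batch cannot be told apart from the group. RNA was extracted with either of 2 kits, and the kit used for each sample is not given in the sources used here. A pair of libraries stood apart from their groups, PD pig 4 at 0h and PD pig 2 at 12h. Their mean correlations with the other libraries of their group were 0.872 and 0.87, against 0.914 to 0.951 elsewhere. The 11 endothelial markers (PECAM1, CDH5, VWF and others) all had counts, with a sum of 1714 to 4151 CPM (counts scaled to a common library total by edgeR) in GS and 1631 to 3282 in PD. The defining markers of endothelium were thus present in every library. In bulk tissue, fewer cells of a type and less RNA per cell cannot be told apart.

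In the pig assembly Sscrofa11.1 the members lie on 9 chromosomes. The Tie genes are ANGPT1 (ENSSSCG00000006035, chr4:29933135-30233960, plus strand), ANGPT2 (ENSSSCG00000015753, chr15:37544707-37599041, minus), TEK (ENSSSCG00000005122, chr1:195937394-196051957, minus) and TIE1 (ENSSSCG00000003950, chr6:167919668-167940874, minus). Of the VEGF genes, VEGFA (ENSSSCG00000001695, chr7:38746052-38761038, plus) and PGF (ENSSSCG00000050616, chr7:98148964-98162741, minus) share a chromosome. The receptors are FLT1 (ENSSSCG00000009320, chr11:5620700-5795264, minus), KDR (ENSSSCG00000008844, chr8:41809116-41856339, minus) and FLT4 (ENSSSCG00000014007, chr2:78076080-78115137, plus), and NRP1 (ENSSSCG00000011102) lies at chr10:56280363-56430777 on the minus strand. ANGPT2 sits on the opposite strand within MCPH1, which had 11661 counts over all libraries against 14183 for ANGPT2. The libraries were strand-specific, but the strand setting of the counting is not given in the sources used here, so reads of these 2 genes may not be fully separated.

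KDR is the receptor with the largest fall in GS among the members, and the sequence around its annotated start is shown for that reason. The window runs from 250 bases before the gene start of the table to 50 bases after it, in the direction of the gene, read from the RefSeq copy of Sscrofa11.1. Capitals mark matches, on either strand, to any of 5 motifs spelled out after the sequence.
KDR, chr8:41856290-41856589, minus strand: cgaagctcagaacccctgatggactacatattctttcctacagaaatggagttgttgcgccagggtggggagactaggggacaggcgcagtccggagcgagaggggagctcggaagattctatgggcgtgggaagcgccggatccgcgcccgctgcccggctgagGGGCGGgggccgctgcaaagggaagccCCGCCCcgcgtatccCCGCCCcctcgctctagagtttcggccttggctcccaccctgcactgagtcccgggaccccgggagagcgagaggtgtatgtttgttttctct

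The KDR window is rich in G and C (64.3%) and its capitals are 3 GC boxes. The share holding each motif was counted in the 20273 windows of the same length at the starts of protein-coding genes. The GC box, searched as GGGCGG, was in 48.6% of them. The motif of GATA factors, searched as AGATAA, was in 10.2%, and that of FOXO factors, searched as GTAAACA, in 2.8%. The core of ETS sites, searched as CCGGAA, was in 17.4%, and the core of hypoxia response elements, searched as ACGTG, in 21.3%. No motif overlapped another in the printed window. Among the other members, VEGFA (2), FLT1 (3), FLT4 (5), ANGPT1 (1) and PGF (5) had GC boxes and ANGPT2 had 2 GATA matches. TIE1 and NRP1 had no match in theirs. Of the members named here, the outermost RefSeq starts of TIE1 (167947253), ANGPT1 (29925203), ANGPT2 (37600925), FLT1 (5797095) and VEGFA (38746393) lie outside these windows. The sequence at those starts was not searched. These are matches of letters only, and binding was not measured in these samples.

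Before perfusion, VEGFA was the most abundant member. Levels of different genes are compared here per kilobase of RefSeq exon, as normalised CPM per kb. At 0h in GS, VEGFA stood at 79.9 ± 16.3 CPM per kb (mean ± SD, n = 5 pigs), followed by KDR (50.6 ± 11.9), NRP1 (41 ± 10.2), TEK (23.2 ± 6.03), FLT1 (12.8 ± 3.62), TIE1 (11.5 ± 2.83), FLT4 (8.3 ± 3.37), ANGPT1 (6.04 ± 0.78), PGF (2.48 ± 1.13) and ANGPT2 (1.88 ± 0.518). Neighbours in this order overlapped in range, except ANGPT1 and PGF. VEGFA still exceeded KDR, NRP1 exceeded TEK, and TIE1 exceeded FLT4 in all 5 GS pigs. In PD, VEGFA also led in 4 of 4 pigs, at 34.8 ± 15.7 CPM per kb. There the next members were TEK (21.9 ± 9.65), KDR (21.3 ± 11.8) and NRP1 (14.2 ± 2.96), and TEK exceeded KDR in only 2 of 4 pigs. The ligand ANGPT2 was lowest in both groups.

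**Figure D1:**
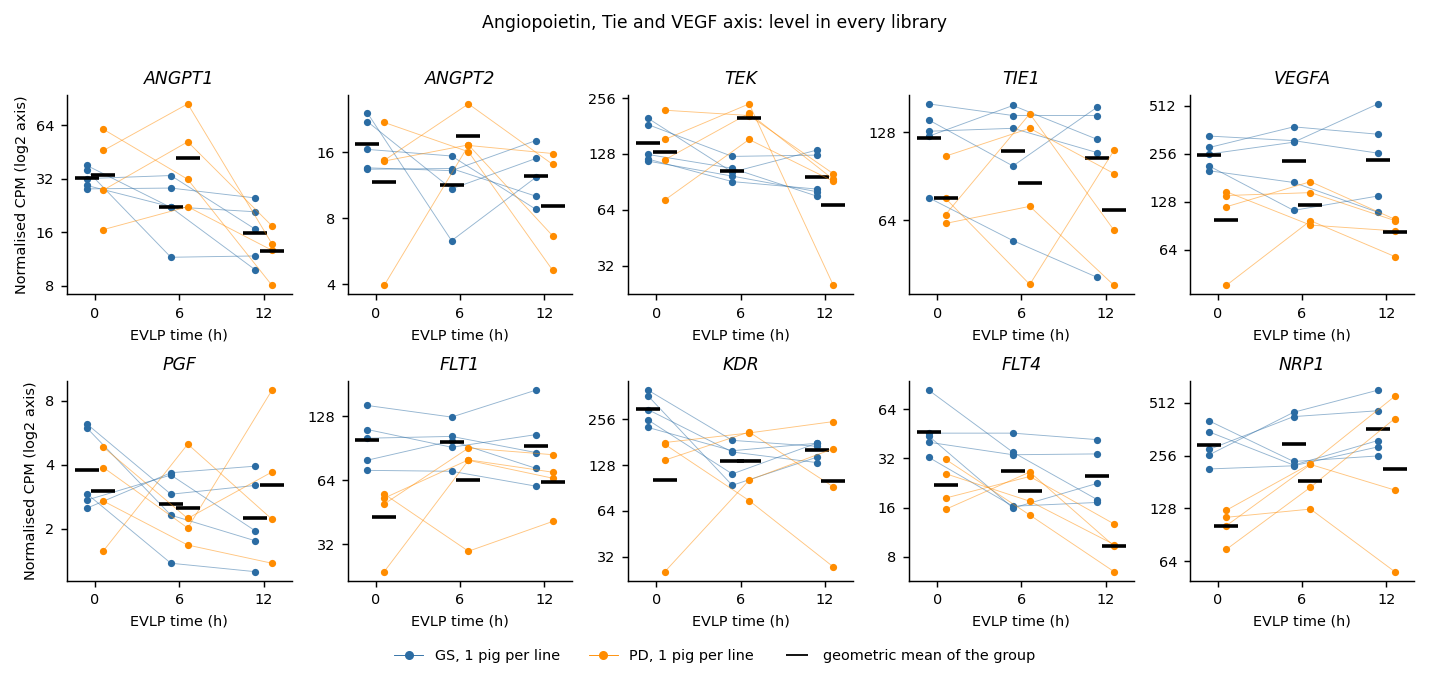
Normalised CPM (log2 axis) of the 9 members and PGF in all 27 libraries, against EVLP time in hours, with 1 line per pig (blue GS, orange PD) and black bars at the geometric mean of each group. KDR in GS lay at 226 to 397 CPM at 0h and at 94.3 to 186 CPM at 6h, while 1 PD library at 0h (pig 4) held 25.6 CPM.

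The groups already differed before perfusion. By edgeR's quasi-likelihood test, 6 of the 9 members were called at 0h, all lower in PD, where 40.6% of the 16477 genes tested were called and 19.3% were called lower in PD. The co-receptor NRP1 had 259, 278, 215, 403 and 349 CPM in GS pigs 9, 17, 44, 55 and 77 and 114, 125, 74.8 and 102 CPM in PD pigs 2, 3, 4 and 5. It was lower in PD in every pig, by a log2 fold change of -1.49 ± 0.24 (SE, adjusted p = 0.000485). The values of KDR were 253, 364, 296, 397 and 226 CPM in GS and 175, 180, 25.6 and 138 CPM in PD. The PD pigs again lay below every GS pig (log2 fold change -1.21 ± 0.44, adjusted p = 0.0436). Without PD pig 4 the difference in KDR was -0.86 (adjusted p = 0.00841), and the adjusted p passed 0.05 when any of pigs 5, 9, 17, 44 and 55 was left out (0.0557 to 0.0875).

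VEGFA at 0h had 200, 214, 280, 330 and 255 CPM in GS and 148, 119, 38.3 and 140 CPM in PD. These ranges did not overlap either (log2 fold change -1.16 ± 0.34, adjusted p = 0.0163, or -0.87 without pig 4). The receptor FLT1 was at 71.3 to 144 CPM in GS and 23.8 to 55.2 CPM in PD (-1.12 ± 0.28, adjusted p = 0.00731), and FLT4 at 32.5 to 83.8 CPM and 15.6 to 31.6 CPM (-1.06 ± 0.30, adjusted p = 0.0152). In all, 5 members had no overlap at 0h with the lower values in PD, which was the case for 16.9% of all genes. TIE1 overlapped, at 76.4 to 160 CPM in GS and 62.4 to 106 CPM in PD (-0.65 ± 0.24, adjusted p = 0.044), and lost its call with any of 7 of the 9 pigs left out (all but PD pig 5 and GS pig 9, adjusted p up to 0.106). TEK, ANGPT1 and ANGPT2 were not called, with log2 fold changes between -0.34 and 0.25, and the 95% interval of the TEK difference ran from -0.70 to 0.61.

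Markers of other cells differed between the groups at 0h as well. Of the 11 endothelial markers, 2 were called higher in PD (CLDN5, a tight junction protein, 1.67 ± 0.42, and EMCN) and 4 lower (ERG, an endothelial transcription factor, -2.15 ± 0.45, SHANK3, CDH5 and VWF). Their summed level was 2169 to 3323 CPM in GS and 1996 to 2393 CPM in PD. The 7 alveolar type 2 markers found in the table summed to 7894 to 10562 CPM in GS and 27167 to 79001 CPM in PD, with no marker under 3 counts. SFTPC, surfactant protein C, was called higher in PD (3.56 ± 0.40), as was SFTPD, and SFTPB lower (-1.35 ± 0.38), with a list median of 0.64. The 7 mural (pericyte) markers, all with at least 3 counts at 0h, summed to 278 to 561 CPM and 163 to 244 CPM, and 2 of the 6 tested were called lower in PD. Sums of 3 more lists did not overlap. The 5 general capillary markers in the table summed to 690 to 1809 CPM in GS and 367 to 460 CPM in PD, with PLVAP called lower (-2.02 ± 0.48), BTNL9 called higher and a list median of 0.25. The 7 macrophage markers summed to 1860 to 3468 CPM in GS and 1651 to 1832 CPM in PD. CD68 (-1.89 ± 0.36) and CSF1R were called lower in PD, with a list median of 0.17. The 5 neutrophil markers in the table, 1 of them under 3 counts in PD, summed to 149 to 395 CPM in GS and 624 to 1245 CPM in PD. Of the 4 tested, S100A8 (3.27 ± 0.50) and S100A12 were called higher in PD and CSF3R lower (-1.36 ± 0.39). Of the 6 lymphatic markers, PROX1 was called lower in PD (-1.82 ± 0.52) and none higher, with a list median of -0.28. SCGB3A1 of the airway list was called higher (4.21 ± 0.66). Of the red cell and platelet list, HBB was called higher (4.96 ± 0.73) and ITGA2B lower (-1.59 ± 0.20). The part of these differences, and of depth and extraction, in the member values was not tested.

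In GS, KDR fell by 6h. Its 5 values at 0h (given above) became 112, 94.3, 156, 186 and 159 CPM at 6h in pigs 9, 17, 44, 55 and 77, so that every pig at 6h lay below every pig at 0h. The ratio to 0h of the same pig was 0.259 to 0.704, and the log2 fold change was -1.15 ± 0.18 (SE, edgeR, adjusted p = 0.00115). KDR was the single member called of 9 at 6h, where 11.1% of the 18594 genes tested were called and 5.56% were called lower. Without pig 17 its log2 fold change of -0.95 was just short of the 2-fold threshold (adjusted p = 0.00484), and in a fit of all 27 libraries the adjusted p was 0.105. At 12h KDR had 178, 144, 133, 170 and 178 CPM, again below every 0h value. Its log2 fold change of -0.96 ± 0.18 (adjusted p = 0.00182) lay just under the 2-fold threshold, and its 95% interval was -1.35 to -0.56. It passed that threshold without pig 9 (-1.03, adjusted p = 0.00284) and without pig 77 (-1.08, adjusted p = 0.00263), where 18.8% and 15.7% of genes were called.

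KDR was also lower relative to the endothelial markers. The mean log2 level of the 11 markers changed by -0.05 ± 0.47 (SD) at 6h and -0.04 ± 0.20 at 12h in GS, and none of the 11 was called at either time. Relative to that mean, KDR was at -1.08 ± 0.15 at 6h and -0.88 ± 0.34 at 12h, lower in 5 of 5 pigs each time. The spread between pigs at 6h, 0.52 for KDR alone, thus became narrower on this scale. Of 6 markers of aerocytes, a capillary cell type of the alveolus, SOSTDC1 was called lower at 6h (-2.47 ± 0.70) and 12h (-2.98 ± 0.71). HPGD was called lower at 12h. Against medians of -0.05 and -0.08 for all genes, those of the 6 markers were -0.42 and -0.13. Their sum went from 364, 499, 522, 481 and 467 CPM at 0h to 321, 354, 424, 438 and 400 CPM at 6h in pigs 9, 17, 44, 55 and 77, lower in every pig. At 12h it was 303 to 494 CPM and lower than at 0h in all but pig 77. The part of aerocytes in the KDR values was not tested. The GS libraries fell into a shallower set (pigs 9 and 17, 26335584 to 41802541 counts) and a deeper one (pigs 44, 55 and 77, 51708598 to 67522703), and KDR was lower in both, by a mean log2 ratio of -1.56 and -0.84 at 6h and -0.92 and -0.91 at 12h.

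TEK was lower in every GS pig, by less than 2-fold. Its values were 184, 199, 120, 127 and 117 CPM at 0h, 124, 102, 90.7, 107 and 97.1 CPM at 6h, and 126, 134, 82.7, 75.8 and 80.1 CPM at 12h. The ranges overlapped between times, but each pig lay below its own start, with ratios of 0.514 to 0.841 at 6h and a narrow 0.598 to 0.687 at 12h. By edgeR its log2 fold change was -0.50 ± 0.12 at 6h (adjusted p = 0.0108). At 12h TEK stood at -0.62 ± 0.12 (SE, adjusted p = 0.00221), and neither value reached 2-fold. The mean log2 ratio of the shallower and deeper GS pigs was -0.76 and -0.31 at 6h and -0.56 and -0.61 at 12h.

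Of the Tie ligands, ANGPT1 fell by 12h in GS. It had 38.1, 35.8, 29.4, 32.1 and 28.1 CPM at 0h, 22.1, 11.6, 22.3, 33.4 and 28.4 CPM at 6h, and 9.87, 11.8, 20.9, 16.7 and 25 CPM at 12h. At 6h pigs 55 and 77 were still at their start, and at 12h all 5 pigs lay below the lowest 0h value. The log2 fold change at 12h was -1.07 ± 0.26 (SE, adjusted p = 0.00604), the one member called of 9 where 15.7% of genes were called and 8.66% were called lower. The call rested on pigs 9 and 17, since without either the fold was under 2 (-0.82 and -0.89, adjusted p = 0.0324 and 0.0207). These are the shallower pigs, with a mean log2 ratio of -1.78 against -0.53 in the other 3. Without the replicate block it was -0.99 (adjusted p = 0.023), also just short of 2-fold.

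ANGPT2 in GS moved less than its spread allowed to be called, with 22.1, 24.2, 13.4, 16.5 and 13.6 CPM at 0h and 10.9, 6.33, 13.5, 15.4 and 13.2 CPM at 6h. The lower values at 6h were those of pigs 9 and 17, whereas the other 3 pigs stayed within a ratio of 0.929 to 1. Its log2 fold change by edgeR was -0.61 ± 0.27 at 6h (adjusted p = 0.112) and -0.54 ± 0.27 at 12h (adjusted p = 0.132). Without pig 17 the value at 6h was -0.29 (adjusted p = 0.396). FLT4, the lymphatic receptor, went from 32.5, 43.9, 45.7, 83.8 and 40.2 CPM to 16.3, 15.9, 45.7, 34.9 and 33.7 CPM at 6h and 17.2, 22.5, 41.7, 17.9 and 34.1 CPM at 12h. No pig was above its start, though pig 44 hardly moved. The log2 fold changes of FLT4 were -0.84 ± 0.25 (adjusted p = 0.0243) and -0.93 ± 0.25 (adjusted p = 0.0115) by edgeR, under the 2-fold threshold, and without the replicate block the adjusted p at 6h was 0.164. FLT4 was called at both times without pig 44 (-1.03 and -1.10) and at 12h without pig 77 (-1.09), where 7.2%, 11.6% and 15.7% of genes were called, while without pig 55 it was -0.62 at 12h. At 6h the adjusted p was 0.0786 without pig 9 and 0.0887 without pig 17. Of the 6 lymphatic endothelial markers, CCL21 was called lower at both times (-1.23 ± 0.37 and -1.31 ± 0.37) and PROX1 at 12h. The median of the list was -0.49 at 6h and -0.39 at 12h, against -0.05 and -0.08 for all genes. The sum of the 6 was 324, 174, 285, 356 and 337 CPM at 0h in pigs 9, 17, 44, 55 and 77. It was 426, 123, 392, 295 and 335 CPM at 6h and 477, 135, 271, 223 and 280 CPM at 12h. This sum was thus higher than at 0h in pigs 9 and 44 at 6h and in pig 9 at 12h. The part of lymphatic tissue in the FLT4 values was not tested.

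Without the 2-fold threshold, 3 members would be called at 6h (KDR, FLT4, TEK) and 4 at 12h (with ANGPT1), all lower, where 28.5% and 38.4% of all genes would be. Without the replicate block the adjusted p was above 0.05 for TEK (0.144 at 6h and 0.0692 at 12h) and FLT4 (0.072 at 12h). In a fit of all 27 libraries it was 0.321 and 0.168 for TEK, 0.147 for KDR at 12h and 0.0867 for FLT4 at 6h. The remaining members were close to their start. The log2 fold changes of TIE1, VEGFA, FLT1 and NRP1 lay between -0.16 and -0.04 at 6h and between -0.26 and 0.23 at 12h. VEGFA spread out during GS perfusion, from 200 to 330 CPM at 0h to 110 to 525 CPM at 12h. At 12h pigs 9 and 17 held 110 and 139 CPM and pig 77 held 525 CPM. NRP1 at 12h had 604 and 461 CPM in pigs 9 and 17 and 255 to 312 CPM in the other 3, so the shallower and deeper pigs differed in the sign of their mean log2 ratio (0.97 and -0.14). PGF, at 1.26 to 6.23 CPM throughout GS, had -0.59 ± 0.32 at 6h and -0.83 ± 0.32 at 12h (adjusted p = 0.0532). Without pig 55 these were -0.35 and -0.56 (adjusted p = 0.241 at 12h), and without pig 77 the value at 12h was -1.17 (adjusted p = 0.0131, called). In all, 9 of 9 members had a negative value at 6h and 8 of 9 at 12h, with medians of -0.50 and -0.54. Of all genes, 46.2% had a positive value at 6h and 45.7% at 12h.

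**Figure D2:**
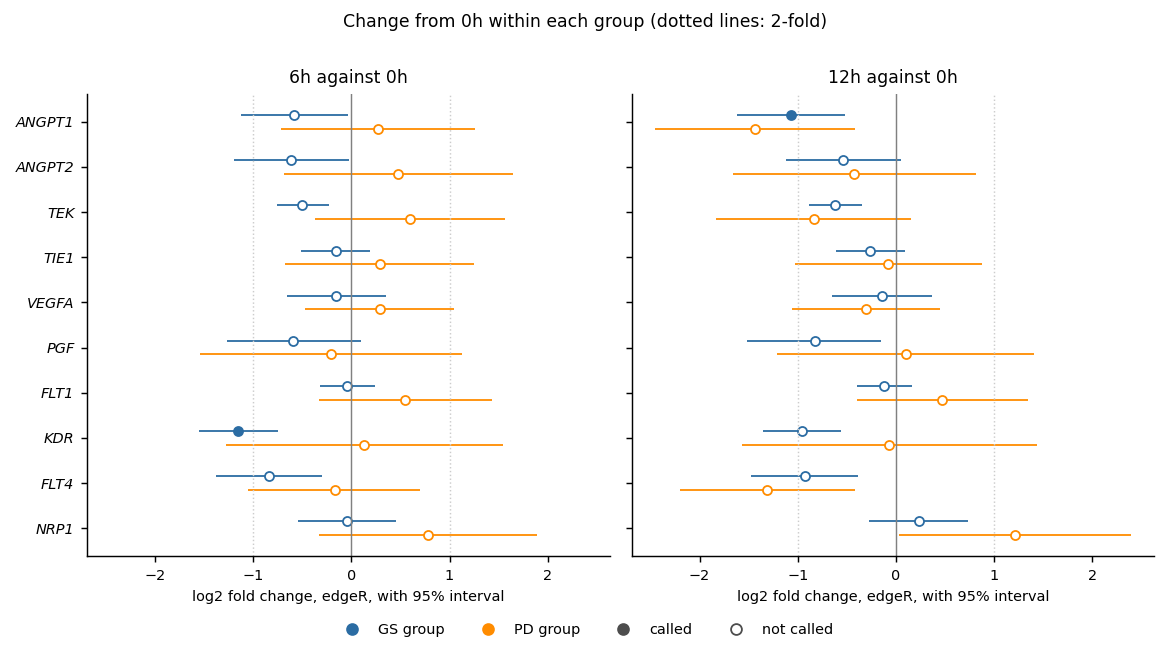
Log2 fold change against 0h of each member and PGF in GS (blue) and PD (orange), at 6h and 12h, as edgeR estimates with 95% intervals. Filled points are called (adjusted p under 0.05 and at least 2-fold): KDR in GS at 6h (-1.15) and ANGPT1 in GS at 12h (-1.07).

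In PD, no member was called at 6h or at 12h by edgeR, where 0.142% and 5.98% of the 15545 genes tested were called. At an unadjusted p under 0.05 there were 0 members at 6h and 3 at 12h, against 9.41% and 24.5% of genes. DESeq2 called 0 members at 6h and 2 at 12h (ANGPT1 and FLT4), with 2.75% and 16.5% of genes called. The variation left after fitting pig and time was larger in PD than in GS, with a common biological coefficient of variation of 0.489 against 0.259. The PD value includes the 2 libraries that stood apart.

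TEK in PD had 153, 220, 72.2 and 119 CPM at 0h in pigs 2, 3, 4 and 5, then 238, 206, 153 and 212 CPM at 6h and 25, 100, 91.1 and 93.2 CPM at 12h. At 6h it was above its start in 3 of 4 pigs. At 12h it was below its 6h value in all 4 pigs, most in pig 2, the library that stood apart. TEK was not called at 6h, with a log2 fold change of 0.60 ± 0.44 (SE, adjusted p = 0.656), nor at 12h, with -0.84 ± 0.45 (adjusted p = 0.28). Without the 2 libraries that stood apart these values were 0.43 and -0.62, and the one at 12h was -0.43 without pig 2 and -1.23 without pig 4. From 6h to 12h TEK changed by -1.44 ± 0.45 (unadjusted p = 0.0088, adjusted p = 0.402).

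KDR in PD went in opposite directions in different pigs. It had 175, 180, 25.6 and 138 CPM at 0h, 74.9, 208, 102 and 211 CPM at 6h, and 27.5, 247, 164 and 92.1 CPM at 12h. The ratio at 12h to 0h ran from 0.158 in pig 2 to 6.39 in pig 4, and both extremes involve a library that stood apart. Those 2 libraries also had the highest sums of the 7 alveolar type 2 markers, 79001 CPM in pig 4 at 0h and 90667 CPM in pig 2 at 12h, against 15777 to 49213 CPM in the other PD libraries. They held the lowest 2 values in PD of KDR (25.6 and 27.5 CPM) and of TEK (72.2 and 25 CPM), and the part of these cells in the member values was not tested. For KDR the mean log2 ratio was 0.40 ± 1.32 (SD, n = 4) at 6h and -0.03 ± 2.22 at 12h. NRP1 was above its start in all 4 PD pigs at 6h (127, 230, 169 and 228 CPM, from 114, 125, 74.8 and 102) and in 3 of 4 at 12h (55.9, 557, 416 and 163 CPM). The exception at 12h was again pig 2. NRP1 had 0.78 ± 0.51 at 6h and 1.21 ± 0.54 at 12h (SE, adjusted p = 0.632 and 0.194), and 1.52 at 12h without the 2 libraries (adjusted p = 0.0124, called, as were 21.1% of all genes). The value at 12h was 1.83 without pig 2 (adjusted p = 0.0162, called, as were 24.4% of genes), 0.79 without pig 3 and 0.73 without pig 4.

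ANGPT1 and FLT4 were below their start in all 4 PD pigs at 12h. ANGPT1 had 46.2, 60.7, 16.6 and 27.7 CPM at 0h, 84.4, 31.8, 22.3 and 51.7 CPM at 6h, and 13.8, 8.06, 12.7 and 17.4 CPM at 12h. It was thus above its start in 3 pigs at 6h and lower than at 6h in all 4 at 12h, when the highest PD value (17.4) barely exceeded the lowest at 0h (16.6). The log2 fold change at 12h was -1.44 ± 0.46 (SE, adjusted p = 0.0868), and -1.45 without the 2 libraries (adjusted p = 0.0307, called, among the same 21.1% of genes), while without pig 3 it was -0.89 (adjusted p = 0.472). FLT4 had 25.8, 15.6, 31.6 and 18.3 CPM at 0h, 17.5, 26.4, 14.4 and 24.8 CPM at 6h, and 9.5, 9.31, 6.48 and 12.7 CPM at 12h, when all 4 pigs lay below every 0h value. The log2 fold change of FLT4 at 12h was -1.31 ± 0.41 (adjusted p = 0.0766), and -0.83 without the 2 libraries (adjusted p = 0.112), while without the replicate block it was called (-1.27, adjusted p = 0.0382), as were 9.39% of genes. None of the 6 lymphatic markers was called in PD, and their median was -0.45 at 12h against 0h and -0.74 at 12h against 6h, against -0.05 and -0.02 for all genes. Their sum in pigs 2, 3, 4 and 5 was 322, 351, 154 and 195 CPM at 0h and 157, 265, 455 and 223 CPM at 12h. It was thus higher at 12h than at 0h in pigs 4 and 5. The part of lymphatic tissue in these FLT4 values was not tested.

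Among the other PD values, ANGPT2 was 21.9, 14.6, 3.96 and 14.7 CPM at 0h, 16.1, 17.3, 17.2 and 26.6 CPM at 6h and 4.64, 6.66, 15.8 and 14.1 CPM at 12h. Its 6h values were close together in 3 of the pigs, while its 0h value in pig 4 was far below those of the rest. FLT1 was above its start in 3 of 4 pigs at both times, with a log2 fold change of 0.55 ± 0.40 at 6h, not called at either time. This value was 1.03 without pig 2, 0.21 without pig 4 and 0.27 without the 2 libraries. At 6h the fits of ANGPT1, ANGPT2, TIE1, VEGFA, KDR and FLT4 lay between -0.17 and 0.48, and at 12h those of ANGPT2, TIE1, VEGFA, FLT1 and KDR between -0.43 and 0.47. VEGFA in PD stayed at 38.3 to 171 CPM in all 12 libraries, and at 12h it held 58.1 to 99.4 CPM. PGF was at 1.38 to 8.96 CPM. The mean log2 level of the 11 endothelial markers changed by 0.24 ± 0.44 (SD) at 6h and by -0.20 ± 0.08 at 12h, and none was called.

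Between 6h and 12h no gene at all was called by edgeR at an adjusted p under 0.05 in either group (0% of genes in GS and 0% in PD). In GS no member had an unadjusted p under 0.05, and DESeq2 called no member either. In PD, 3 of 9 members had an unadjusted p under 0.05 (10% of genes): ANGPT1 (-1.71 ± 0.46, adjusted p = 0.392), TEK and FLT4 (-1.14 ± 0.40, adjusted p = 0.41). DESeq2 called ANGPT1 of these, with 1.51% of genes called. Without the 2 libraries that stood apart, edgeR called ANGPT1 (-1.56) and TEK (-1.05), with 4.34% of genes called. ANGPT2 (-0.91 ± 0.53) and VEGFA (-0.59 ± 0.34) were also below their 6h values in all 4 PD pigs, without a call. The endothelial marker mean changed by -0.43 ± 0.42 over the same interval, lower in 3 of 4 pigs, and relative to it TEK was at -1.12 ± 1.51 and FLT4 at -0.69 ± 0.21.

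**Figure D3:**
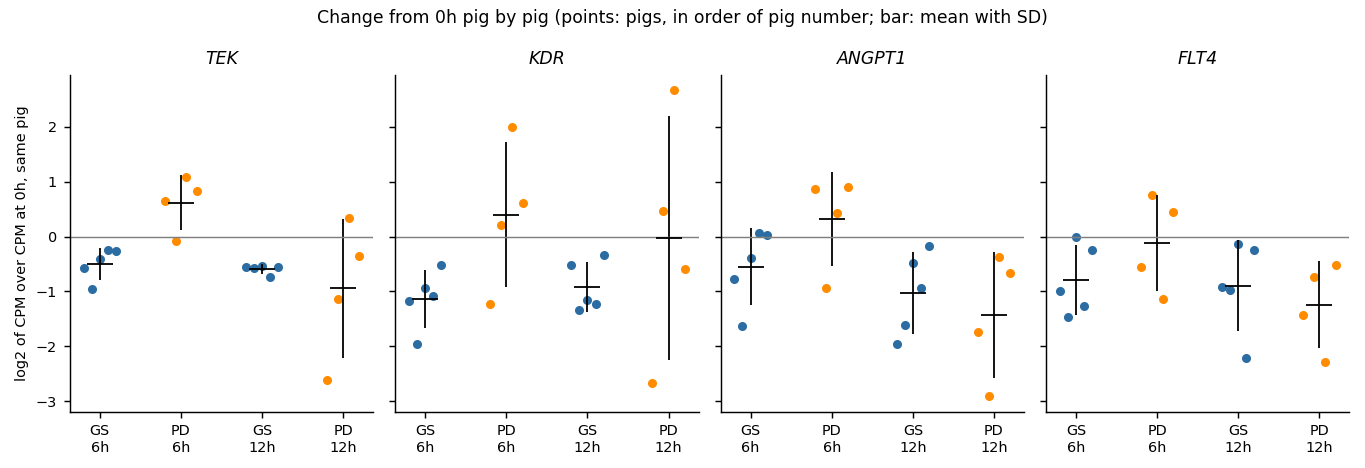
Log2 ratio to 0h of the same pig for TEK, KDR, ANGPT1 and FLT4, with 1 point per pig and bars for mean and SD (GS blue, n = 5, and PD orange, n = 4). TEK at 6h lies at -0.96 to -0.25 in GS and at -0.09 to 1.09 in PD, whereas KDR in PD at 12h spans -2.66 to 2.67.

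Whether dialysis went with another change than perfusate replacement was tested on the change from 0h itself. By the term for group and time together in edgeR's model, no gene was called at 6h or at 12h (0% and 0% of the 17884 genes tested). At an unadjusted p under 0.05 there was 1 of 9 members at 6h (TEK, 5.85% of genes) and 0 at 12h (5.98%). DESeq2 called no member at either time. At 6h the difference PD minus GS was positive for all 9 members, with a median of 0.81 on the log2 scale against 0.02 for all genes, of which 51.6% were positive. Vascular marker lists also had positive medians, at 1.09 for the 6 lymphatic, 0.29 for the 11 endothelial, 0.37 for the 6 aerocyte (capillary), 0.20 for the 5 general capillary, 0.38 for the 6 smooth muscle and 0.26 for the 6 mural markers tested, with none of them called. Other lists had medians below 0, at -0.71 for the 4 neutrophil, -0.31 for the 7 alveolar type 2, -0.18 for the 6 airway and -0.15 for the 7 macrophage markers tested. The T, NK and B cell list was at 0.16, while fibroblasts (-0.03), alveolar type 1 (-0.02) and red cells and platelets (-0.07) were near 0. The alveolar type 2 sum in PD was 27167 to 79001 CPM at 0h and 15777 to 49213 CPM at 6h. The part of these cells in the member values was not tested. The same 0h libraries enter this comparison and the one at 0h, in which most members were lower in PD. The differences were 1.25 ± 0.66 for KDR (95% interval -0.12 to 2.61), 1.07 ± 0.43 for TEK (0.17 to 1.97, unadjusted p = 0.0217, adjusted p = 0.783) and 1.06 ± 0.60 for ANGPT2 (-0.19 to 2.32). ANGPT1 (0.83 ± 0.51), NRP1 (0.81 ± 0.55), FLT4 (0.67 ± 0.45) and FLT1 (0.57 ± 0.38) had wide intervals too, and TIE1 and VEGFA lay between 0.42 and 0.44. Without the 2 libraries that stood apart the values were 0.93 for KDR, 0.86 for TEK, 0.70 for ANGPT2, 0.62 for ANGPT1, 0.69 for NRP1, 1.04 for FLT4 and 0.25 for FLT1. Without PD pig 3 alone, ANGPT1 was at 1.32 and FLT4 at 0.35, and without PD pig 2 alone KDR was at 1.91 and FLT1 at 1.06. At 12h the largest differences among the 9 members were 0.95 ± 0.57 for NRP1, 0.85 ± 0.68 for KDR and 0.55 ± 0.38 for FLT1, and the other 6 lay between -0.40 and 0.15. The value for KDR was 1.76 without PD pig 2 and 0.01 without pig 4, and that for NRP1 was 1.59 and 0.44. PGF was at 0.92 ± 0.65 at 12h, or 0.50 without the 2 libraries.

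The study compared the fold changes of the groups with an unpaired Wilcoxon test. Here such a test was run as an exact two-sided test on differences of rlog values (regularised log2 counts) from 0h, for the 17884 genes that passed the filter. At 6h, TEK alone among the 9 members had an exact p under 0.05, with changes of 0.40 ± 0.33 (SD) in the 4 PD pigs and -0.28 ± 0.19 in the 5 GS pigs. Its groups did not overlap and its exact p was 0.0159, the smallest that 4 against 5 pigs can give. Of these genes, 6.04% had an exact p under 0.05 and 3.17% did not overlap. The adjusted p of TEK was 0.501, and no gene had a smaller one. An adjusted p under 0.05 would need a far larger share of genes at the smallest p than 3.17%, so this value cannot decide on TEK. The study states that it filtered its own comparison at an adjusted p under 0.05 and names TEK among the genes higher in PD at 6h. Relative to the mean of the endothelial markers the groups overlapped, with log2 ratios of TEK of 0.95, -0.86, 0.89 and 0.53 in PD pigs 2, 3, 4 and 5 and -0.67 to -0.12 in GS. TEK is also a gene that the study itself picked out of these samples, so its direction here is not independent evidence. With pig 4 left out, whose 0h library stood apart, the difference in TEK was 0.60 in place of 0.69.

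KDR differed by 0.91 on this scale (exact p = 0.0635), ANGPT2 by 0.77 (exact p = 0.111) and ANGPT1 by 0.53 (exact p = 0.19), each with overlapping groups. Leaving out PD pig 2 brought 4 members under 0.05, among them TEK, ANGPT2 and KDR at an exact p of 0.0357, where 11.3% of genes were under it. Leaving out PD pig 3 brought 2 (TEK and ANGPT1), with 13.7% of genes. With a PD pig left out, 0.0357 is the smallest p possible, and only genes whose groups do not overlap fall under 0.05. At 12h none of the 9 members had an exact p under 0.05, where 4.04% of genes did and 2.23% did not overlap. The largest difference then was 0.59 for KDR (exact p = 0.556).

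**Figure D4:**
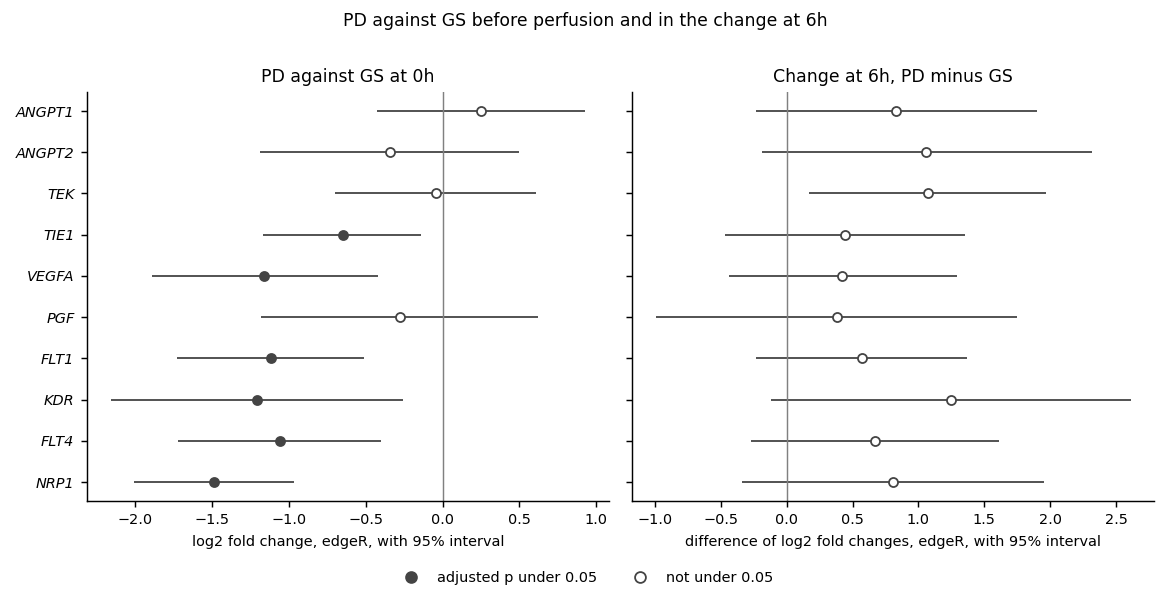
EdgeR log2 differences with 95% intervals for each member and PGF: left, PD against GS at 0h, and right, the change at 6h in PD minus that in GS. Filled points have an adjusted p under 0.05, which holds for NRP1 (-1.49), KDR, VEGFA, FLT1, FLT4 and TIE1 on the left and for no gene on the right.

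Because ANGPT1 and ANGPT2 compete for TEK, their levels per kb were also set side by side in each library, a ratio chosen after the values were seen and given without a test. ANGPT2 over ANGPT1 was 0.259 to 0.384 in GS at 0h and 0.261 to 0.343 at 6h. At 12h it was 0.863, 0.592, 0.272, 0.298 and 0.41 in pigs 9, 17, 44, 55 and 77, so that it was higher than at 0h in all 5 pigs, by little in pigs 44 and 55. In PD the ratio was 0.269, 0.137, 0.136 and 0.301 at 0h and 0.191, 0.469, 0.707 and 0.46 at 12h in pigs 2, 3, 4 and 5. At 6h it was 0.109, 0.309, 0.439 and 0.292. It was thus higher than at 0h in 2 of 4 PD pigs at 6h and in 3 of 4 at 12h. ANGPT1 exceeded ANGPT2 per kb in every library.

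Genes around the axis were followed as lists. The share of genes called is that given above for each comparison. Of 9 other ligands and receptors found in the table, ANGPTL4, a lipase inhibitor with a domain like that of the angiopoietins, was the one called in GS, higher at 6h (1.79 ± 0.25) and at 12h (1.77 ± 0.25). None of the 9 was called in PD. Of 24 signalling partners of the receptors, 3 rose (SHB, MAPKAPK2, SHC1) and 1 fell (PTPN6) at 6h in GS, and 2 rose and 1 fell at 12h. SHB, an adaptor that binds KDR, had 1.20 ± 0.28 at 6h, and the phosphatase PTPN6 had -1.44 ± 0.25, while MAPKAPK2, a kinase on the path from KDR to actin, had 1.21 ± 0.17 at 12h. In PD at 12h SHB (2.42 ± 0.59) and SHC1 were called higher and GRB14 (-1.97 ± 0.48) and PTPN6 lower. PTPN6 is also strongly expressed in blood cells. Of the 6 T, NK and B cell markers tested, MS4A1 was called lower in GS at 6h (-1.29 ± 0.25) and 12h (-1.62 ± 0.26). In PD at 12h MS4A1 (-2.39 ± 0.44) and CD3D were called lower. The medians of that list were -0.65, -0.66 and -0.76, and the part of these cells in the PTPN6 values was not tested. None of the 24 was called in PD at 6h.

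Of 18 endothelial genes known to respond to VEGF, GS had 3 higher (ICAM1, RCAN1, PLAUR) and 2 lower (APLN, HEY1) at 6h, and 3 higher (ICAM1, F3, PLAUR) and 4 lower (EGR3, APLNR, APLN, HEY1) at 12h. ICAM1, an adhesion molecule for leukocytes that also answers cytokines, rose by 1.86 ± 0.30 and 1.84 ± 0.31, whereas APLN, the ligand apelin, was at -1.82 ± 0.46 at 6h and EGR3, an early response factor, at -2.04 ± 0.54 at 12h. In PD, where 17 were tested, 4 were called higher at 12h (ICAM1 at 2.59 ± 0.38, DUSP5, RCAN1, F3) and none lower, and none at 6h. The median of the list was 0.17 and 0.20 in GS and 0.25 and 0.06 in PD. Several of those that rose, such as ICAM1, F3 (tissue factor) and PLAUR (the urokinase receptor), are also made by macrophages and epithelium. CD14, a monocyte and macrophage marker, was called higher in GS at both times (1.28 ± 0.22 and 1.60 ± 0.22), and the 7 macrophage markers, all detected, summed to 1860 to 3468 CPM at 0h and 2167 to 3759 CPM at 12h. CD14 was the one called of these 7, and the list had a median of -0.02 at 6h and 0.13 at 12h. In PD none of the 7 was called, with medians of -0.19 and -0.20. Their part in these values was not tested.

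Of 17 transcription factors known to act on the receptor genes or on ANGPT2, ETS2 was the one called for a change from 0h, higher in GS at 6h (1.17 ± 0.14) and 12h (1.40 ± 0.14) and in PD at 12h (1.46 ± 0.30). None of the windows described above held the ETS letters searched, which says nothing about binding elsewhere. Of 17 hypoxia responsive genes, ADM, the vasodilator adrenomedullin, was called higher in GS at 6h (1.74 ± 0.24) and 12h (2.40 ± 0.25) and in PD at 12h (3.48 ± 0.47). At 12h 4 of the 17 were called higher in GS (ADM, BHLHE40, PFKFB3, DDIT4) and 3 in PD (ADM, PFKFB3, BHLHE40), with none lower. VEGFA, which is itself driven by hypoxia in many cells, was not called at 12h in either group (log2 fold changes between -0.31 and -0.14). None of the genes of these 5 lists was called for a different change in PD than in GS. At 0h, where 40.6% of all genes were called between the groups, 10 of the 17 transcription factors were (8 lower in PD, among them ERG and GATA2, and 2 higher), with a list median of -0.72. For the other lists there were 4 lower and 1 higher of 9 ligands and receptors, 8 lower and 1 higher of 24 signalling partners, 6 lower and 2 higher of 18 VEGF responsive genes, and 3 each way of 17 hypoxia responsive genes.

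Genes with the most similar profile were sought for 3 members, by Pearson correlation of log2 CPM centred on each pig's mean over all 27 libraries, as a description. For TEK these were GULP1 (r = 0.959), SMARCA2 (0.948), RBL2 (0.942), AKAP6 (0.941) and KLHDC1 (0.938), none of them an endothelial marker. The correlation for GULP1 was 0.859 within GS and 0.974 within PD. For ANGPT2 they were MYLK (0.922), EFNB2 (0.916), FOXF1 (0.912), PTPRR (0.903) and CALD1 (0.894), of which MYLK and CALD1 are parts of the contractile apparatus and EFNB2 is an arterial marker. For VEGFA they were HSPB6 (0.891), IMMP2L (0.821), KANK2 (0.82), PGM5 (0.804) and NOS2 (0.802). The 27 points share 9 pigs and the libraries that stood apart, and the values carry no test.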

How the data were processed

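Lung biopsies of 9 pigs were sequenced as 27 libraries. Per the submitters' processing notes and the study's methods, the authors demultiplexed reads with bcl2fastq 2.2.18.12, trimmed them with cutadapt 1.15, aligned them to Sscrofa11.1 with TopHat2 2.0.14 and counted them per gene with featureCounts (Subread 1.6.0). The deposited values are raw read counts per gene. The libraries were strand-specific and paired-end. The strand setting of the counting and the treatment of reads with several matches are not given in the sources used here. The total of a library sets the precision of each count, and intervals of fits cover both counting and the spread between pigs.

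Counts were fitted with edgeR 4.0.16 (R 4.3.3; TMM factors, filterByExpr, robust quasi-likelihood test, Benjamini-Hochberg adjustment over all genes tested) with the pig as a replicate block, since the 3 biopsies of a number come from the same animal. Deviations of libraries of the same pig had a mean correlation of 0.513 in GS (0.344 to 0.73) and 0.112 in PD (-0.265 to 0.462), against -0.116 and -0.0337 between pigs. Genes were called at an adjusted p under 0.05, and against 0h also at a fold of at least 2. The comparison at 0h had no block, and changes in PD and GS were compared by the interaction in all 27 libraries and by exact two-sided Wilcoxon tests on rlog values (DESeq2 1.42.0) with scipy 1.17.1. Normalised CPM are counts relative to the TMM-scaled library total, log2 CPM had 0.5 added to each count, and errors are SE for fits and SD for pigs. The edgeR fits of some of the comparisons were tested on simulated counts that held no pig effect. The DESeq2 fits and the exact Wilcoxon test were not tested in that way. Fitted values of members under 0.5 on the log2 scale are given in ranges, apart from intervals. The members and lists were chosen with earlier results of these data known. Every member was named for the changes from 0h in each group and for the groups at 0h, while the other comparisons name some members only. From a list, values were given for some of the called genes with the largest rise or the largest fall, and not for all. Genes in lists are named by the table's symbols or, where blank, through gene identifiers. Alternatives were no replicate block, the 2 times compared alone, all libraries in one fit, DESeq2, size factors of DESeq2 within edgeR, every gene kept whatever its counts, adjusted p alone without the fold, libraries thinned to the lowest total, each pig left out, and, chosen after seeing the data, the 2 libraries that stood apart left out. Columns of other samples numbered 0. The sequence around the start of 1 member is not reported here.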

Additional observations from a re-analysis of the deposited data

Results flagged for a closer look

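Of 100 groups of 4 or 5 pigs, counting levels and ratios to 0h of the 9 members and PGF, 9 held a pig set apart from the others by Dixon's criterion, which chance does in about 1 in 20 groups. In PD at 0h, pig 4 was low for VEGFA (5.26 log2 CPM, the others 6.90 to 7.21), FLT1 (4.57, the others 5.63 to 5.79) and KDR (4.68, the others 7.11 to 7.49). The same library had the low correlation with its group. In PD at 12h, TEK in pig 2, the other library that stood apart, was 4.65 log2 CPM against 6.51 to 6.65. At 6h in PD, FLT1 in pig 2 was 4.89 log2 CPM against 6.31 to 6.51, and ANGPT2 in pig 5 was 4.73 against 4.01 to 4.12. The log2 ratio of PGF at 6h in PD was 1.64 in pig 3 and -1.10 to -0.67 in the others. In GS at 12h, TIE1 in pig 9 was 5.35 log2 CPM against 6.77 to 7.29, and the log2 ratio of TEK was -0.74 in pig 55 and -0.57 to -0.54 in the others.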

How the results depend on the processing

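Of the values of single members and PGF under the alternatives, 629 kept their direction and their side of the test, and none changed sign. A further 23 newly passed the test and 20 no longer did. For changes from 0h the test is the call with its 2-fold threshold, so a kept value can differ in adjusted p. By edgeR, TEK in GS at 6h went from 0.0108 to 0.144 without the replicate block. KDR in GS at 12h went from 0.00182 to 0.147 with all 27 libraries in one fit. The other way, PGF in GS at 12h went from 0.0532 by edgeR to 0.034 by DESeq2. For 63 fitted values under 0.5 in size, given in ranges, 69 of 818 values under alternatives had the opposite sign (up to 0.83) and 2 newly passed the test. For each change below the cause was not tested, except where fewer pigs or no fold threshold make it. Without a fold threshold, 3 members were called in GS at 6h and 4 at 12h, with 28.5% and 38.4% of all genes called. With all 27 libraries in one fit, 0 were called in GS at 6h, 2 in PD at 12h and 2 in PD between 6h and 12h. Of all genes, 6.82%, 18.5% and 2.75% were called in that fit. DESeq2 called 2 in PD at 12h and 1 between 6h and 12h, with 16.5% and 1.51% of all genes called. Without the 2 libraries that stood apart, an alternative chosen after seeing the data, 2 members were called in PD at 12h and 2 between 6h and 12h, with 21.1% and 4.34% of all genes called.

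Without the replicate block, 0 members were called in GS at 12h (ANGPT1 at -0.99) and 1 in PD at 12h (FLT4 at -1.27), and no other count of members changed by more than 1.5 times. Of all genes, 10.2% and 9.39% were called in these 2 comparisons. With each pig left out, counts ranged from 0 to 2 in GS at 6h (0 without pig 17, 2 without pig 44), from 0 to 3 at 12h (0 without pig 17, 1 without pig 9, KDR in place of ANGPT1, 2 without pig 44 with FLT4 added, and 3 without pig 77 with KDR and FLT4 added), from 0 to 1 in PD at 12h (1 without pig 2, NRP1) and from 4 to 5 at 0h. For the exact Wilcoxon test, the count at 6h was 2 by exact permutation of the mean difference (TEK and KDR, with 9.9% of genes) and ranged from 1 to 4 with a pig left out, while at 12h it ranged from 0 to 1 (1 without pig 2, with 16.6% of genes). That test was not run without the 2 libraries, which would leave 3 PD pigs at 6h (the same as without pig 4) and 2 at 12h. Without pig 17 and without pig 44, 10.7% and 7.2% of all genes were called in GS at 6h and 13.3% and 11.6% at 12h. Over all genes, calls in GS at 6h fell from 2057 to 1123 without the block and those in PD at 12h rose from 930 to 1460. Over the alternatives, calls in PD at 12h ranged from 0 (without pig 3, or without pig 5) to 3826 (without pig 2), with 4 from those times alone, 3300 in one fit and 2560 by DESeq2. For the change at 6h and 12h, where edgeR called 0 genes, it called 254 and 153 without PD pig 2 (no member among them) and DESeq2 called 7 and 15. With every library thinned to the lowest total, calls went from 2057 to 1547 in GS at 6h and from 930 to 907 in PD at 12h.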
